A study of Mus musculus with 6 samples.

Results

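The miR-342 and miR-139 hairpins each lie in an intron of a protein-coding gene and each give a 3p and a 5p mature strand (arm). The set comprised mmu-miR-342-3p, mmu-miR-342-5p, mmu-miR-139-3p and mmu-miR-139-5p, which are 4 of the 598 miRNA names measured. These hairpins were chosen because 1 arm of each had a lower count-based level in M2-exo than in M0-exo. Differences between M2-exo and M0-exo in these arms are therefore given as a description, with no test. RAW264.7 cells, an established mouse macrophage line, were left unstimulated (M0-exo, n = 3) or exposed for 24 h to IL-4 and IL-13 at 20 ng/mL each (M2-exo, n = 3). Exosomes, small vesicles shed by the cells, were then collected from serum-free supernatant and their small RNA was sequenced. Both groups came from this 1 cell line, labelled wild type, and all 6 libraries carried the label batch 1. The labels do not say whether replicates were separate cultures, so the p-values below measure only the spread between these samples, which may be technical.

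A miRNA hairpin is cut from a longer transcript by Drosha and then by Dicer, which leaves a short duplex of the 5p and 3p arms. An Argonaute protein keeps 1 arm as a guide and the other is usually degraded, so arms made in equal amounts can accumulate to different levels, and the seed of the retained arm (bases 2 to 8) directs it to its targets. An intronic hairpin is commonly transcribed with its host gene. The host of miR-342 is Evl, an Ena/VASP family regulator of actin, and the host of miR-139 is Pde2a, a phosphodiesterase that breaks down cyclic nucleotides.

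The mature sequences of the 4 arms are shown because the comparison of arms, their base composition and a short motif all rest on them. Capitals mark the seed.

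mmu-miR-342-3p: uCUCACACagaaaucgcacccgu
mmu-miR-342-5p: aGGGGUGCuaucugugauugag
mmu-miR-139-3p: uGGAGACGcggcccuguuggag
mmu-miR-139-5p: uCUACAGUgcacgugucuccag

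All 4 deposited sequences were identical to the RefSeq entries of the same names on GRCm38.p6. The 4 seeds differed from each other, and no other name in the table carried any of them. The longest run of leading bases shared with any other name was 6 bases, between mmu-miR-139-3p and mmu-miR-3473a, so each arm could be told from every other entry by its start. Each arm also had 1 entry in the table, with no second precursor.

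On GRCm38.p6, mmu-miR-342-5p lies at chr12:108658638-108658659 and mmu-miR-342-3p at chr12:108658680-108658702, both on the plus strand. Their 99-base hairpin lies in intron 3 of the 14-exon transcript Evl-201, an intron of 20189 bp, and in an intron of 5 of 6 coding transcripts of Evl. The arm mmu-miR-139-5p lies at chr7:101475382-101475403 and mmu-miR-139-3p at chr7:101475418-101475439, also on the plus strand. Their 68-base hairpin lies in intron 2 of the 31-exon transcript Pde2a-201, an intron of 29902 bp, and in an intron of 4 of 4 coding transcripts. No annotated exon of either host covered its hairpin, so the label intronic held for both. These positions are those of the reference used here, since the submitters' processing notes name mm39.

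The predicted folds were hairpins in which the arms faced each other. RNAfold gave a minimum free energy of -46.8 kcal/mol for miR-342, with 17 bases of each arm paired to the other arm. For miR-139 it gave -35.6 kcal/mol, with 19 bases of each arm paired to the other.

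Library totals over the 598 names were 1453348, 1155464 and 863194 counts in M0-exo replicates 1 to 3. In M2-exo replicates 1 to 3 they were 937317, 860204 and 969974 counts. The 4 arms together held 0.896%, 1.04% and 0.942% of the counts across the M0-exo libraries, against 0.609%, 0.646% and 0.581% in M2-exo. The M2-exo shares all lay below the M0-exo shares. In M2-exo replicate 3, 1 miRNA outside the set, miR-122-5p, stood apart with 2184 counts, and values without that library are given with the marker lists. By mean count over the 6 libraries, mmu-miR-139-3p ranked 27, mmu-miR-139-5p 29, mmu-miR-342-5p 34 and mmu-miR-342-3p 67 of the 598 names. All 4 were thus far above the low counts at which a miRNA could pass or miss a filter, and none was removed by one.

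In M2-exo, mmu-miR-342-5p stood at 56.7% of its M0-exo level and mmu-miR-139-3p at 59.1%, while their partner arms mmu-miR-342-3p and mmu-miR-139-5p stood at 100.4% and 113.7%, although the sign of both partners turned negative (log2 fold changes of -0.21 and -0.03) with libraries scaled by their totals alone. Levels were expressed per 1000000 counts of the library (CPM) and scaled by the trimmed mean of M-values (TMM), a factor that sets the bulk of miRNAs level between libraries. The lower arm was thus 5p in miR-342 and 3p in miR-139. The value of mmu-miR-139-3p depended on the processing, since its log2 fold change went from -0.76 to -0.19 when each library was given an offset fitted to GC content (GC offset).

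The main strand of miR-342 in these libraries, mmu-miR-342-5p, was counted 3208, 3051 and 1797 times across M0-exo libraries and 1119, 1007 and 986 times across M2-exo libraries. After TMM scaling these were 2054, 2436 and 1932 CPM for M0-exo and 1310, 1207 and 1127 CPM for M2-exo. Every M2-exo library lay below every M0-exo library. The means were 2141 ± 263 CPM and 1215 ± 91.5 CPM (SD, n = 3 each), with a log2 fold change of -0.82 (SE 0.11) in the edgeR fit over all names.

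The partner arm mmu-miR-342-3p was counted 759, 643 and 421 times across M0-exo libraries and 412, 408 and 426 times across M2-exo libraries. Its scaled levels were 486, 513 and 453 CPM for M0-exo and 482, 489 and 487 CPM for M2-exo. The M2-exo libraries fell inside the M0-exo range. The means were 484 ± 30.5 CPM and 486 ± 3.49 CPM (SD, n = 3 each), a log2 fold change of 0.0059 (SE 0.15).

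The arm mmu-miR-139-3p, which had the highest mean count of the 4 over the 6 libraries, was counted 5768, 5597 and 3871 times across M0-exo libraries and 2284, 2040 and 1894 times across M2-exo libraries. Scaled, these were 3693, 4470 and 4162 CPM for M0-exo and 2674, 2445 and 2166 CPM for M2-exo. The 2 ranges did not overlap, with M2-exo lower. The means were 4108 ± 391 CPM and 2428 ± 254 CPM (SD, n = 3 each), a log2 fold change of -0.76 (SE 0.10).

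Its partner mmu-miR-139-5p was counted 3292, 2755 and 2046 times across M0-exo libraries and 1895, 2101 and 2331 times across M2-exo libraries. On the scaled level it reached 2108, 2200 and 2200 CPM for M0-exo and 2218, 2518 and 2665 CPM for M2-exo. All M2-exo values lay above the M0-exo values, although the lowest of them exceeded the highest M0-exo value by less than the M2-exo SD. The means were 2169 ± 53.3 CPM and 2467 ± 228 CPM (SD, n = 3 each), a log2 fold change of 0.19 (SE 0.11).

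**Figure D1:**
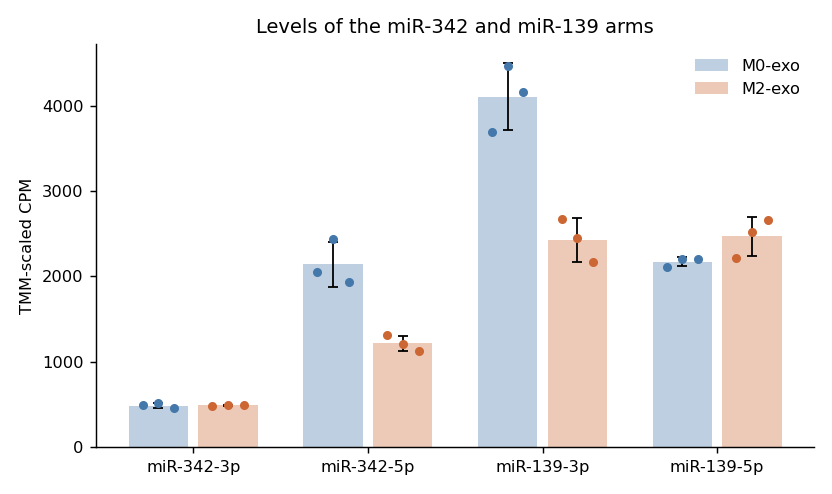
TMM-scaled CPM of the 4 arms in M0-exo (blue) and M2-exo (orange); points are single libraries, bars are means and error bars are SD (n = 3). The points of mmu-miR-342-5p and mmu-miR-139-3p separate by group, with M2-exo at 1127 to 1310 CPM and 2166 to 2674 CPM, whereas those of mmu-miR-342-3p overlap, at 453 to 513 CPM in M0-exo and 482 to 489 CPM in M2-exo.

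Across all names, 38 of 598 (6.35%) were lower in M2-exo at a log2 fold change of -0.5 or below and an unadjusted p-value below 0.05 in edgeR's quasi-likelihood test, and 22 were higher. Of the 4 arms, mmu-miR-342-5p and mmu-miR-139-3p were among the 38, and nothing is read from this because they were chosen for a lower level in the same contrast. With the GC offset mmu-miR-139-3p was not among the miRNAs that passed. From the largest fall to the smallest they ranked 27 and 29 of the 38, so most of the other lower miRNAs had a larger difference. CPM ranges that did not overlap, with M2-exo lower, were seen for 57 names (9.53%), these 2 arms included, and with M2-exo higher for 57 names (9.53%), mmu-miR-139-5p included. CPM is relative to the other miRNAs counted in a library, so a lower level need not mean a smaller amount of the arm. Each library also pooled RNA from many vesicles, so the number of vesicles carrying an arm and the copies per vesicle cannot be told apart.

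Summed over both arms, miR-342 stood at 2625 ± 292 CPM for M0-exo against 1701 ± 88.9 CPM for M2-exo (SD, n = 3 each), which was 64.8% of the M0-exo mean. The same sum for miR-139 was 6278 ± 441 CPM and 4896 ± 66.4 CPM, or 78.0%. In both hairpins the M2-exo sums lay below every M0-exo sum, with 1615 to 1792 CPM against 2385 to 2950 CPM for miR-342 and 4831 to 4964 CPM against 5801 to 6670 CPM for miR-139. The arm chosen for a lower level held most of each hairpin's counts in M0-exo, with mean shares of 81.5% for mmu-miR-342-5p and 65.4% for mmu-miR-139-3p. Nothing is therefore read from the lower sums, and sums of other hairpins were not set beside them. These sums are without the GC offset, with which the log2 fold changes of the miR-139 arms were -0.19 for 3p and 0.23 for 5p.

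The share of each arm within its hairpin does not depend on how libraries are scaled. The 3p arm of miR-342 made up 19.1%, 17.4% and 19.0% of the hairpin's counts across the M0-exo libraries, against 26.9%, 28.8% and 30.2% in M2-exo. The 5p arm was therefore in the majority in all 6 libraries, and less so in each M2-exo library than in any M0-exo library. The group means of the 3p share were 18.5% ± 0.956 and 28.6% ± 1.64 (SD, n = 3 each).

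The 3p arm of miR-139 made up 63.7%, 67.0% and 65.4% of the hairpin's counts across the M0-exo libraries, against 54.7%, 49.3% and 44.8% in M2-exo. It was the majority arm in all M0-exo libraries and in 1 of the 3 M2-exo libraries, replicate 1. The group means were 65.4% ± 1.68 and 49.6% ± 4.92 (SD, n = 3 each).

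The precision of these shares came from 1412 to 3967 counts per library for miR-342 and 4141 to 9060 for miR-139. The 95% Wilson intervals of the miR-342 3p share spanned 16.2% to 20.7% over the M0-exo libraries and 24.7% to 32.6% over the M2-exo libraries. Those of miR-139 spanned 62.7% to 68.0% and 43.3% to 56.2%. Within M2-exo, the intervals of miR-139 did not overlap between replicates (53.1% to 56.2%, 47.7% to 50.8% and 43.3% to 46.3%), and within M0-exo those of replicate 1 (62.7% to 64.6%) and replicate 2 (66.0% to 68.0%) did not. The intervals of miR-342, which rest on fewer counts and are wider for that reason, overlapped within each group. All of these intervals treat each count as an independent molecule. Reads amplified without molecular identifiers are not independent, so the intervals may be too narrow, and spread beyond counting error is not read from them.

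**Figure D2:**
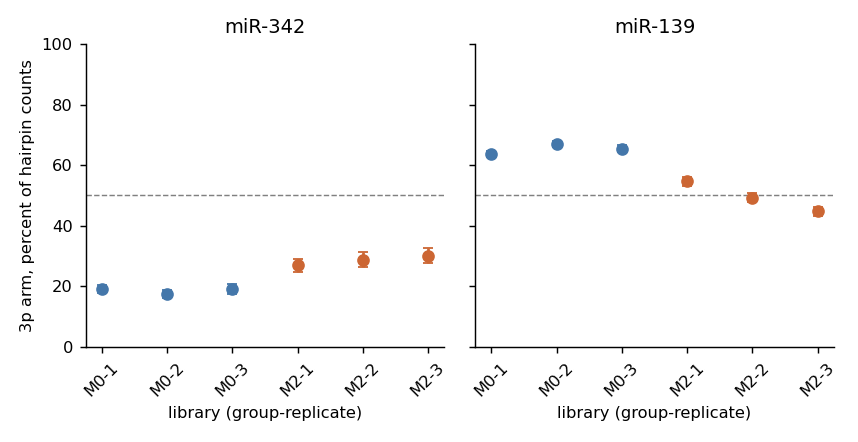
Counts of the 3p arm as a percentage of the counts of both arms, in each library; bars are 95% Wilson intervals and the dashed line marks equal arms. For miR-342 the share was 17.4% to 19.1% in M0-exo and 26.9% to 30.2% in M2-exo, and for miR-139 it was 63.7% to 67.0% and 44.8% to 54.7%.

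Which arm prevailed over all 6 libraries was not itself the basis of the choice. The counts used to choose the hairpins do enter the means below, so their p-values are given as a description only. In both hairpins the lower level of the chosen arm in M2-exo moved the mean toward equal arms. The mean log2(3p/5p) of miR-342, with 0.5 counts added to each arm, was -1.73, with 5p higher in 6 of 6 libraries (exact two-sided sign-flip permutation test over 64 sign patterns, p = 0.03125, the smallest value that 6 libraries allow). For miR-139 the mean was 0.45, with 3p higher in 4 of 6 libraries (the same exact test, p = 0.1875). These were the only 2 such tests, and they compare counts of different sequences, for which the efficiency of capture was not measured. They also pool the libraries of both groups, although the groups differed in this ratio. When all 6 libraries have the same sign the test always returns its smallest p-value, so nothing is read from that p-value beyond the count of signs. The excess of 5p over 3p in miR-342 ranged from 2.31-fold in M2-exo replicate 3 to 4.74-fold in M0-exo replicate 2.

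Between groups, log2(3p/5p) of miR-342 was -2.14 for M0-exo and -1.32 for M2-exo, a difference of 0.82 (SE 0.09). For miR-139 it was 0.92 for M0-exo and -0.02 for M2-exo, a difference of -0.94 (SE 0.18). The balance of arms thus moved toward 3p in miR-342 and toward 5p in miR-139, in both cases away from the arm that was more abundant in M0-exo. With the GC offset, which unlike library scaling can alter an arm ratio, the difference was -0.42 for miR-139 and 0.88 for miR-342. These 2 values are the edgeR log2 fold change of 3p minus that of 5p, not differences of mean log2(3p/5p).

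These values were set beside those of the other hairpins. Of 111 hairpins with both arms in the table, 35 had a mean of at least 20 counts for each arm. Over these 35, the median difference in log2(3p/5p) was -0.13, the median absolute difference was 0.40 and the range was -1.19 to 2.62. By absolute difference miR-139 ranked 9 and miR-342 ranked 12. M0-exo and M2-exo had separate ranges in 10 of the 35 hairpins (28.6%), and both miR-342 and miR-139 were among these 10. Since the hairpins were chosen on this contrast, nothing is read from their place among the 35.

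The 3 hairpins with the largest rise in log2(3p/5p) were miR-712 (2.62, SE 0.96), miR-322 (2.49, SE 1.68) and miR-326 (1.66, SE 0.76). Those with the largest fall were miR-30b (-1.19, SE 0.34), miR-125a (-0.94, SE 0.15) and miR-139. The SD within groups was 0.10 for miR-342, the second smallest of the 35, and 0.22 for miR-139, against a median of 0.43. The sparser hairpins were less precise: miR-322 had means of 25 and 24 counts for its arms, and its difference was 0.88 without M0-exo replicate 3. That of miR-712, with means of 109.5 and 21.5 counts, was 1.68 without M2-exo replicate 2.

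**Figure D3:**
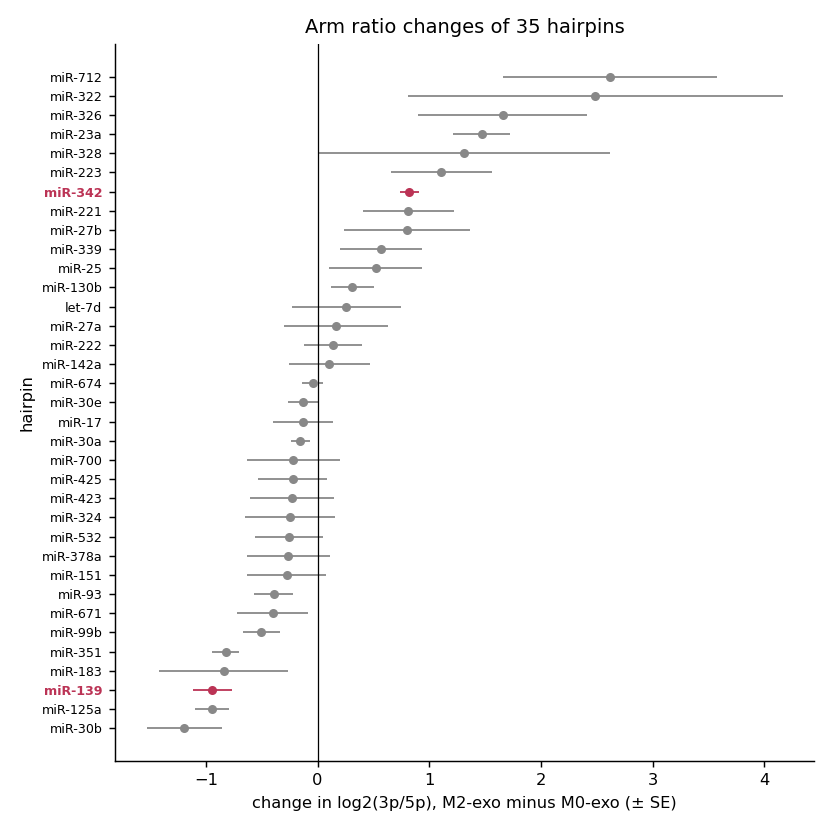
Difference in log2(3p/5p), M2-exo minus M0-exo, of the 35 hairpins with both arms at a mean of at least 20 counts; points are differences of group means, bars are SE and miR-342 and miR-139 are in red. The difference was 0.82 for miR-342 and -0.94 for miR-139, within a range of -1.19 to 2.62.

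An arm lower in M2-exo beside a partner that did not pass in either direction was also found in other hairpins. Among the 35, 11 had an arm that passed as lower, in 2 of them both arms passed, and in 9 the partner did not pass. Apart from miR-342 and miR-139, the arms in question were miR-125a-3p, miR-221-5p, miR-23a-5p, miR-25-5p, miR-30b-3p, miR-326-5p and miR-351-3p, which are named here because of this count. With the GC offset the count was 6, and 5 of these were among the 9. The hairpins miR-125a, miR-139, miR-25 and miR-326 were not counted then, although miR-326-5p itself still passed as lower (-0.72). By mean count over the 6 libraries, the lower arm was the more abundant of its hairpin in 6 of the 9, miR-342 and miR-139 included, and the sparser in 3. An example of the former is miR-125a, with mean counts of 1642 for 3p and 222.5 for 5p and log2 fold changes of -0.68 (-0.49 with the GC offset, where it did not pass) and 0.24. An example of the latter is miR-23a, with mean counts of 1919 for 3p and 261.8 for 5p and log2 fold changes of 0.37 and -1.08. Of the 9, miR-125a, miR-139, miR-25 and miR-326, which were not counted with the GC offset, all had the more abundant arm lower. Of those still counted, miR-30b and miR-342 had the more abundant arm lower, and miR-221, miR-23a and miR-351 the sparser. Nothing is read from this tally, since miR-342 and miR-139 were chosen for a lower arm.

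Outside the 4 arms, the miRNAs whose profile over the 6 libraries was most like that of mmu-miR-342-5p were miR-365-2-5p, miR-92a-1-5p and miR-222-5p, out of 141 candidates with a mean of at least 50 counts. The measure was the root mean square difference of centred log2 CPM, which was 0.132, 0.139 and 0.144, against a median of 0.495 over the candidates. For mmu-miR-139-3p the closest outside the 4 arms were miR-125a-3p at 0.0714, miR-365-2-5p at 0.0827 and miR-222-5p at 0.105, against a median of 0.470. The 2 lower arms differed from each other by 0.0910, but from their own partner arms by 0.419 for miR-342 and 0.502 for miR-139. Both lower arms were chosen for the same direction, so nothing is read from these distances between members.

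The 4 arms differ in base composition. G and C made up 68.2% of mmu-miR-139-3p, 54.5% of mmu-miR-139-5p, 52.2% of mmu-miR-342-3p and 50% of mmu-miR-342-5p. The lower arm was thus the richer in G and C in miR-139, by 13.6 percentage points, and the poorer in miR-342, by 2.17 points.

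Base composition moved with the fold change across miRNAs. Of 241 names with a mean of at least 10 counts, the 22 with a GC content under 40% had a median log2 fold change of 0.24, and the 64 from 40% to under 50% had 0.14. The median was -0.10 for the 87 names from 50% to under 60% and -0.40 for the 68 at 60% and over. In that last group, which holds mmu-miR-139-3p, 17 names (25%) were lower in M2-exo and 6 higher. In the group from 50% to under 60%, which holds the other 3 arms, 14 (16.1%) were lower and 2 higher. The groups under 40% and from 40% to under 50% had 2 lower and 4 higher, and 1 lower and 6 higher. Over all 241 names, 34 (14.1%) were lower and 18 (7.47%) higher. Over the 35 hairpins, the difference in log2(3p/5p) had a Pearson correlation of -0.45 and a Spearman correlation of -0.43 with the GC content of 3p minus that of 5p. All 35 points come from the same 6 libraries, so this is a description.

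**Figure D4:**
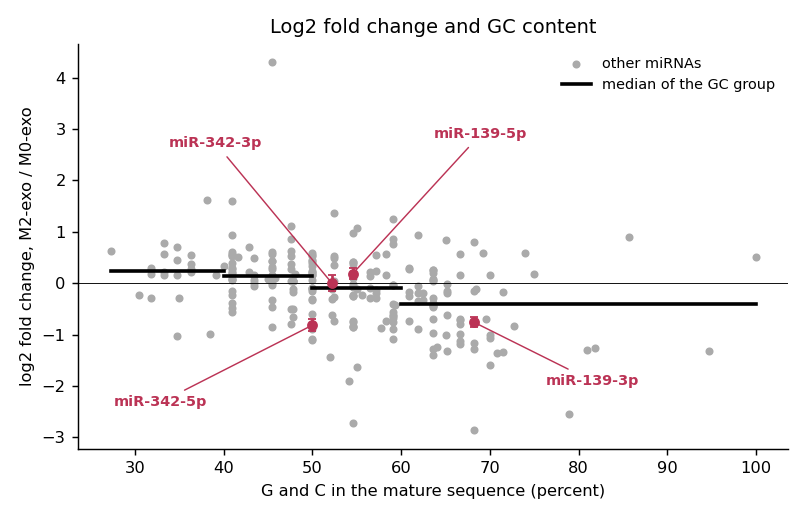
Log2 fold change, M2-exo over M0-exo, against GC content of the mature sequence for 241 miRNAs with a mean of at least 10 counts; black lines are medians of the 4 GC groups, and the arms of miR-342 and miR-139 are in red with SE. The median went from 0.24 under 40% GC to -0.40 at 60% and over, where mmu-miR-139-3p (68.2% GC) had a log2 fold change of -0.76.

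With the GC offset, the log2 fold change of mmu-miR-139-3p was -0.19 (SE 0.14), and that of mmu-miR-342-5p was -0.88 (SE 0.15). The value of miR-139 thus depended on this offset more than that of miR-342, and whether GC content itself altered the counts was not tested. With libraries scaled by their totals alone, mmu-miR-342-5p stood at -1.04 and mmu-miR-139-3p at -0.98. That scaling moved the median log2 fold change of all 598 names from 0.026 to -0.18, and calls were then 63 lower and 10 higher, against 38 and 22 with TMM.

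**Figure D5:**
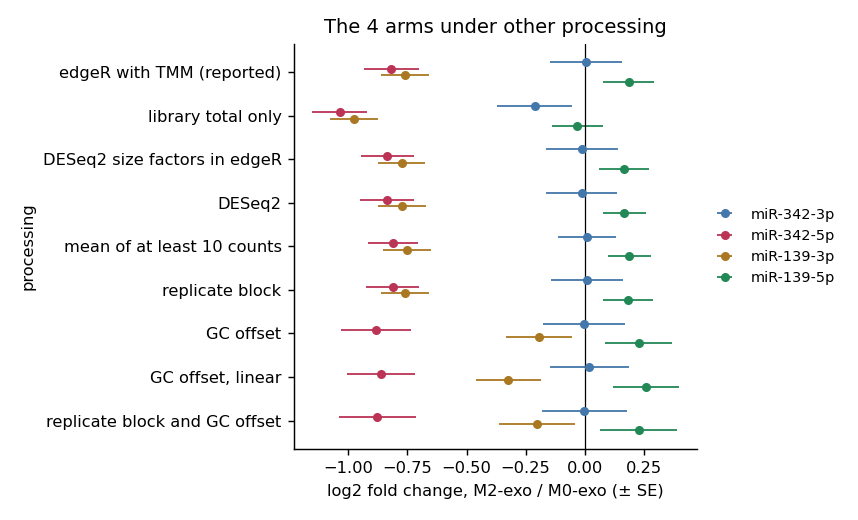
Log2 fold change, M2-exo over M0-exo, of the 4 arms under other processing; points are estimates and bars are SE. With a GC offset mmu-miR-139-3p went from -0.76 to -0.19 and mmu-miR-342-5p from -0.82 to -0.88, and with library totals alone mmu-miR-342-3p and mmu-miR-139-5p were negative, at -0.21 and -0.03.

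Short motifs known for binding hnRNPA2B1, a protein linked to the sorting of miRNAs into exosomes, were searched as GGAG and CCCU in the mature strand only. The arm mmu-miR-139-3p held GGAG at 2 places, near its start and at its end, and CCCU at 1, and the other 3 arms held neither. GGAG was present in 147 of 598 names (24.6%) and CCCU in 53 (8.86%). Among names with a mean of at least 10 counts, the 46 with GGAG had a median log2 fold change of -0.32, with 12 lower and 5 higher, against 0.064 for the 195 without it, with 22 lower and 13 higher. GGAG itself is rich in G, so motif and GC content were not separated here, and a match of letters is no measure of binding.

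Other miRNAs in introns of protein-coding genes were described from a list of 28 hairpins, each of which lay in an intron of its named host in GENCODE M21. Of these, 24 were measured, with 41 mature miRNAs, of which 3 passed as lower and 3 as higher, against 38 and 22 of all 598. Those averaging 10 counts or more, 24 in all, had a median log2 fold change of 0.041, against -0.0088 for all 241 such names. The 5 most abundant were miR-93-5p (0.01, SE 0.09), miR-98-5p (0.29, SE 0.09), miR-151-5p (0.04, SE 0.10), miR-26b-5p and miR-103-3p (0.04, SE 0.12).

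Those that passed as lower were miR-25-5p from Mcm7, a helicase subunit (-0.62, SE 0.13), miR-28a-3p from Lpp (-0.89, SE 0.40) and miR-326-5p from Arrb1, which encodes a beta-arrestin (-1.36, SE 0.21). Those that passed as higher were miR-26b-5p from Ctdsp1 (0.58, SE 0.11) and, from Smc4, a condensin subunit, miR-15b-5p (0.54, SE 0.14) and miR-15b-3p. The last was counted 2, 0 and 0 times across M0-exo libraries and 4, 19 and 11 times across M2-exo libraries, too few in M0-exo for a fold change. Of the 6, miR-326-5p alone passed under every one of 15 alternatives, but at -0.72 with the GC offset and -0.87 with a straight-line GC offset chosen after seeing the data. With the GC offset, miR-25-5p, miR-15b-5p and miR-26b-5p stood at -0.43, 0.24 and 0.09 and did not pass, and with library totals alone miR-15b-5p at 0.32 and miR-26b-5p at 0.36 did not pass. Without M2-exo replicate 3, miR-15b-5p at 0.49 and miR-26b-5p at 0.46 did not pass, nor did miR-26b-5p without M0-exo replicate 2, at 0.47. The call of miR-28a-3p was lost in DESeq2 (-0.92) and without M0-exo replicate 1 (-0.65), M2-exo replicate 1 (-0.87) or M2-exo replicate 2 (-0.79), and that of miR-15b-3p without M2-exo replicate 2 and with the replicate block and GC offset together.

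The macrophage origin of the samples was checked with 6 myeloid miRNAs, all of which were measured. Their summed counts were 2872, 1770 and 1258 across the M0-exo libraries, against 1088, 1189 and 1363 in M2-exo. As CPM without TMM scaling, these sums were 1976, 1532 and 1457 in M0-exo, against 1161, 1382 and 1405 in M2-exo. The highest by mean count over the 6 libraries was miR-155-5p, with miR-142a-3p above it in each M2-exo library (361, 473 and 548 counts against 301, 334 and 307). A miRNA induced by inflammatory signals, miR-155-5p passed as lower (-1.04, SE 0.15), and miR-223-3p, known from granulocytes and monocytes, passed as higher (1.60, SE 0.58). The broadly expressed miR-21a-5p also passed as higher (0.55, SE 0.18), but not without M0-exo replicate 3 (0.32), without M2-exo replicate 3 (0.47), with the GC offset (0.17) or with library totals alone (0.33). Values of the 3 that did not pass were 0.45 for miR-142a-3p, 0.22 for miR-142a-5p and -0.55 for miR-146a-5p. Leaving out M0-exo replicate 1 brought miR-142a-3p to 0.64 and miR-142a-5p to 0.84, past the threshold, as did leaving out M2-exo replicate 1 for miR-142a-3p (0.58), and for miR-146a-5p the GC offset (-0.86) and library totals alone (-0.77) did so. With the GC offset miR-142a-3p stood at 0.02 and miR-142a-5p at -0.17, and the latter was also negative without M0-exo replicate 2 (-0.08) or M2-exo replicate 3 (-0.09).

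Markers of other sources did not all lie below the myeloid ones. The myeloid miR-223-3p was counted 24, 21 and 8 times across M0-exo libraries and 41, 38 and 28 times across M2-exo libraries. In every library it lay below miR-122-5p and below miR-486a-5p (80, 138 and 74 counts, then 103, 56 and 87), and above miR-199a-3p. The myeloid miR-155-5p, miR-142a-3p and miR-21a-5p lay above miR-486a-5p in every library. The liver marker miR-122-5p was counted 63, 59 and 51 times across M0-exo libraries and 137, 107 and 2184 times across M2-exo libraries, so M2-exo replicate 3 stood apart. Its log2 fold change was 4.30 with all libraries and 1.61 without that replicate, both past the threshold, and DESeq2 gave it no p-value. The 2 measured red blood cell markers summed to 86, 138 and 84 counts across M0-exo libraries and 110, 59 and 101 across M2-exo libraries, nearly all miR-486a-5p, which is also found in muscle. The defining marker miR-451a was counted 6, 0 and 10 times across M0-exo libraries and 7, 3 and 14 times across M2-exo libraries. The lymphocyte marker miR-150-5p had 40, 0 and 0 counts and then 4, 9 and 9. Of the stromal list, 2 of 3 were measured, with sums of 31, 23 and 22 counts and then 37, 26 and 65, most of it miR-143-3p. The other, miR-199a-3p, was counted 1, 0 and 0 times across M0-exo libraries and 7, 7 and 19 times across M2-exo libraries and passed as higher, but not without M2-exo replicate 3. Without M2-exo replicate 3, 35 miRNAs passed as lower and 16 as higher, the arm difference was 0.77 for miR-342 and -0.80 for miR-139, and the log2 fold changes of mmu-miR-342-5p and mmu-miR-139-3p were -0.77 and -0.68.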

How the data were processed

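Small RNA of 3 M0-exo and 3 M2-exo samples was sequenced and grouped by the labels. The authors deposited raw counts per mature miRNA and precursor, with the total over libraries and the length of each sequence, and RPM values, which equalled counts per 1000000 over all 638 entries to within 0.005. The aligner and counter are not given in the sources used here.

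Each of 598 names was represented by its entry of highest total (35 had more than 1). Counts were fitted with edgeR 4.0.16 in R 4.3.3 (TMM, quasi-likelihood, no covariates), and a miRNA passed when its log2 fold change was 0.5 or more in size with p under 0.05, unadjusted. SE was obtained from the log2 coefficient and its F statistic. Replicate pairs differed by a chi-square per degree of freedom of 5.22 to 24.1, so none was a repeat deposit of 1 library. Arm ratios had 0.5 counts added. Folds came from RNAfold 2.7.2, sequences from RefSeq (GRCm38.p6) and introns from GENCODE M21. Python 3.11.15 with scipy 1.17.1 was used, and figures were drawn with matplotlib 3.10.9. The fit was tested on simulated data.

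Named were the 4 arms, miRNAs with their seeds (none), the 3 most like each lower arm, the 3 hairpins with the largest rise and fall in arm ratio, the intronic miRNAs that passed or were among the 5 most abundant, and the markers of myeloid cells, red blood cells, lymphocytes, liver and stroma. The members and lists were chosen with earlier results of these data known. Alternatives were other scaling, DESeq2 1.42.0, a count minimum of 10, summed entries, GC offsets, a replicate block and leaving out each library.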

Additional observations from a re-analysis of the deposited data

How the results depend on the processing

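With library totals alone, the number of miRNAs lower in M2-exo was 63 instead of 38 (86.3% of calls instead of 63.3%), and the log2 fold changes were -0.2117 for mmu-miR-342-3p, -1.0355 for mmu-miR-342-5p, -0.9758 for mmu-miR-139-3p and -0.0316 for mmu-miR-139-5p. That of mmu-miR-139-3p was -0.1941 with the GC offset, -0.2011 with the replicate block and the GC offset, and -0.3228 with a straight-line GC offset chosen after seeing the data. The arm difference of miR-139, taken here as the log2 fold change of 3p minus that of 5p, was -0.4212 and -0.5819 with the GC offset and the straight-line GC offset alone. Under the other alternatives these log2 fold changes and the arm difference moved by less than 1 SD within groups. Summed entries and the replicate block could not move the arm difference. Each arm had 1 entry, and a mean of paired differences equals the difference of group means. Apart from library totals alone, the number of lower miRNAs was 26 (replicate block with GC offset) to 44 (without M0-exo replicate 1 or 2). The log2 fold change of mmu-miR-342-5p stayed between -1.04 and -0.71 and its arm difference between 0.77 and 0.88. Total calls ranged from 45 to 74 over 15 alternatives, against 60. Leaving out single libraries gave a mean log2(3p/5p) of miR-342 of -1.8319 to -1.6247, with p = 0.0625 in the exact permutation test, the smallest that 5 libraries allow. Replicate numbers did not pair the samples (correlations of same-numbered deviations -0.0324, 0.0352 and -0.0584 over 241 miRNAs). In the fit with a replicate block there were 56 calls, 53 shared with the 60, and the 4 arms stood at 0.0079, -0.81, -0.76 and 0.18 in the order above. Groups of 3 samples and 1 cell line limit all of these values, and the cause of the GC relation was not tested.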
